A study of Mus musculus with 2 samples.

Results

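The genes described here encode the interleukins, their receptor chains and the secreted or decoy proteins that restrain them, as expressed in fetal mouse liver. They were chosen by name: every protein-coding gene whose symbol begins with Il and a digit was taken, which gave 82 of the 21474 protein-coding genes that could be matched to the annotation. By the known role of their products, 37 are ligands, 38 are receptor chains, 6 are regulators (Il1rn, Il1f5, Il18bp, Il1r2, Il13ra2 and Il22ra2) and 1, Il4i1, is a secreted enzyme that breaks down amino acids. The antisense gene Il1bos also carries such a symbol but encodes no protein and was left out.

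Interleukins are secreted signalling proteins that act mostly between blood cells. Most bind receptors assembled from a chain that recognises the ligand and a shared chain, such as the common gamma chain Il2rg, gp130 (Il6st) or the IL-1 receptor accessory protein Il1rap, and signalling needs the chains together, although some ligand-binding chains, such as that for IL-6, also act in soluble form. Class I and class II cytokine receptors signal through JAK kinases and STAT factors, the IL-1 and IL-17 receptor families through adaptors such as MyD88 and Act1. The liver of the late mouse embryo is the main site of blood formation, so hepatocytes, red cell precursors, myeloid cells and resident macrophages lie side by side in it.

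Total RNA above 200 nt was sequenced from liver of healthy B6NCrl mouse embryos at embryonic day 16.5. Both libraries belong to 1 group, untreated and with no genetic change named. Each is a pool of male and female embryos, of 41 embryos in replicate 2 and of a number the labels do not give in replicate 1. The design therefore held no comparison of conditions, and levels of different genes, compared per length as TPM (transcript abundance scaled to a fixed sum in each library), were set against the spread of the 2 libraries. Both pools carry 1 donor identifier, so this spread may be partly technical.

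The depth on Ensembl genes was 43364573 expected counts for replicate 1 and 47263435 for replicate 2. Of these, 19530 and 22580 fell on the 82 genes, which is 0.045% and 0.048%. The 6 hepatocyte and 6 red cell markers examined were all above 1 TPM, with Afp at 13667 and 13629 TPM and Hba-a2 at 144854 and 143473 TPM. All 8 macrophage markers (summed level 330.0 and 357.4 TPM) and all 6 neutrophil markers (5720 and 5988 TPM) were above 1 TPM as well. None of the 6 T cell markers was, their sum being 1.09 and 1.44 TPM with Cd3e at 0 in both libraries. In bulk tissue, fewer cells of a type and less RNA per cell cannot be told apart.

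Receptor chains were detected more often than ligands. A gene was taken as detected when neither library put it under 1 TPM. By this level 27 of the 82 genes passed, 18 of 38 receptor chains (47.4%), 6 of 37 ligands (16.2%) and 3 of 6 regulators. Over all protein-coding genes the share was 52.2%, so receptor chains stood near the background and ligands below it. The median level was 0.04 ± 0 TPM for ligands (SD, n = 2), 0.878 ± 0.117 TPM for receptor chains and 1.49 ± 0.113 TPM for all protein-coding genes. Of the 37 ligands, 19 had fewer than 3 counts in both libraries. The ligand median is thus a value near 0 at the limit of counting, and its SD of 0 does not measure agreement. Receptor chains held 68.3% ± 0.141 (SD, n = 2) of the summed TPM of the 82 genes, regulators 18.3% ± 0.503 and ligands 13.1% ± 0.510. That sum was 216.2 TPM in replicate 1 and 235.4 TPM in replicate 2. Only 6 of the 82 genes reached 10 TPM in both libraries, against 5670 of the 21474 protein-coding genes. The 6 were 3 receptor chains (Il11ra1, Il10rb and Il17ra), 2 regulators (Il18bp and Il1rn) and 1 ligand (Il18).

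**Figure D1:**
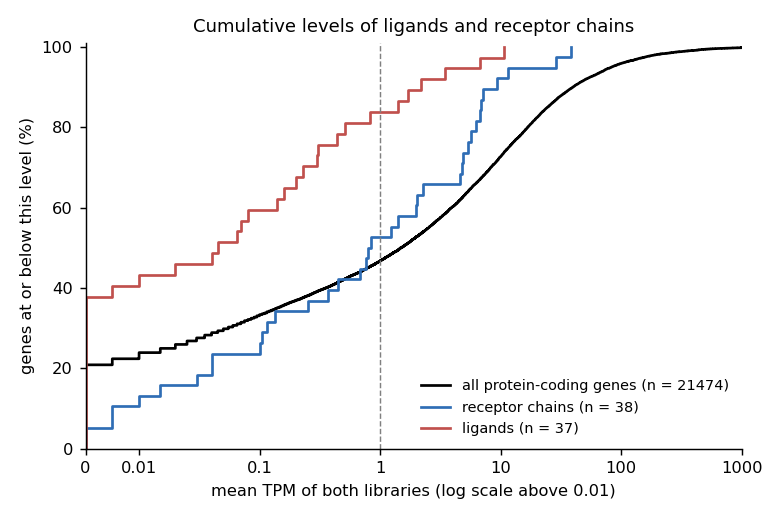
Cumulative share of genes (vertical axis, percent) at or below a mean TPM of both libraries (horizontal axis, log scale above 0.01), for 37 ligands, 38 receptor chains and 21474 protein-coding genes; the dashed line marks 1 TPM. The ligand curve lies above the other 2 from 0 upward, as 14 of the 37 ligands are at 0, while the receptor curve crosses the curve of all genes.

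Among the ligands, the IL-1 family led. Il18, which encodes a cytokine stored as an inactive precursor until caspase-1 cuts it, stood at 10.28 and 11.12 TPM in replicates 1 and 2. All of its 261 and 305 counts lay on a transcript of 702 bases, so a level per length set it higher among the ligands than its counts did. Il1a, the IL-1 form that is active without cutting, had 3.24 and 3.66 TPM. Il33, a nuclear alarm cytokine released by damaged cells, had 1.44 and 1.35 TPM. Both libraries put these genes in the order Il18, Il1a, Il33, with gaps larger than the difference between the libraries. Il1b, the inducible IL-1 form, stood at 0.09 and 0.37 TPM on 5 and 21 counts. The IL-36 gamma gene Il1f9 had 0.28 and 0.60 TPM, and the IL-36 alpha, IL-36 beta and IL-38 genes (Il1f6, Il1f8 and Il1f10) had no count. Thus 3 of 8 IL-1 family ligands were detected.

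Outside the IL-1 family, 3 ligands passed 1 TPM. Il16, a CD4-binding chemoattractant released from a long precursor, had 6.38 and 7.23 TPM. Of its 100-base stretches, 32.7% lay also in Stard5, a gene of the other strand at 17.03 and 22.23 TPM, so part of this level is uncertain. Il15, which sustains natural killer cells and memory T cells, had 1.93 and 2.41 TPM. Il12a, the p35 subunit of IL-12, had 1.58 and 1.86 TPM, while Il12b, the p40 subunit it pairs with, had 0 and 1 count. Il7, the growth factor of early B and T cells, lay next below the detection level among ligands at 0.84 and 0.82 TPM, with 71 and 74 counts. The level next above it among ligands was that of Il33. The difference between Il33 and Il7 exceeded that between the libraries for either gene.

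The remaining ligands were low. Il17b had 0.32 and 0.70 TPM and Il17d 0.19 and 0.41 TPM. Il6, the cytokine that drives the acute phase response of hepatocytes, had 0.34 and 0.27 TPM, on 14 and 12 counts. Il4, the type 2 cytokine, had 0.23 and 0.17 TPM, on 5 and 4 counts that were all assigned to a transcript with 45 codons rather than the 140-codon one. Il27 had 0.08 and 0.24 TPM, on 3 and 10 counts, and Il23a 0.06 and 0.10 TPM, on 3 and 6. At these counts an order among the genes cannot be read. Il34, Il2, Il11, Il17f, Il17c, Il10, Il5 and Il12b had fewer than 3 counts in at least 1 library and are not ranked.

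No count fell in either library on 4445 of the 21474 protein-coding genes and, a near equal share, on 17 of the 82 genes. They were 14 ligands (Il3, Il9, Il13, Il17a, Il19, Il20, Il21, Il22, Il24, Il25, Il31, Il1f6, Il1f8 and Il1f10), 2 receptor chains (Il9r and Il23r) and the IL-36 receptor antagonist Il1f5. The limit that a count of 0 allows, taken as 3 counts, ranged over the 82 genes from 0.00878 to 0.163 TPM in replicate 1 and from 0.00812 to 0.151 TPM in replicate 2. This limit covers counting error only, as the reads carried no molecular identifiers.

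**Figure D2:**
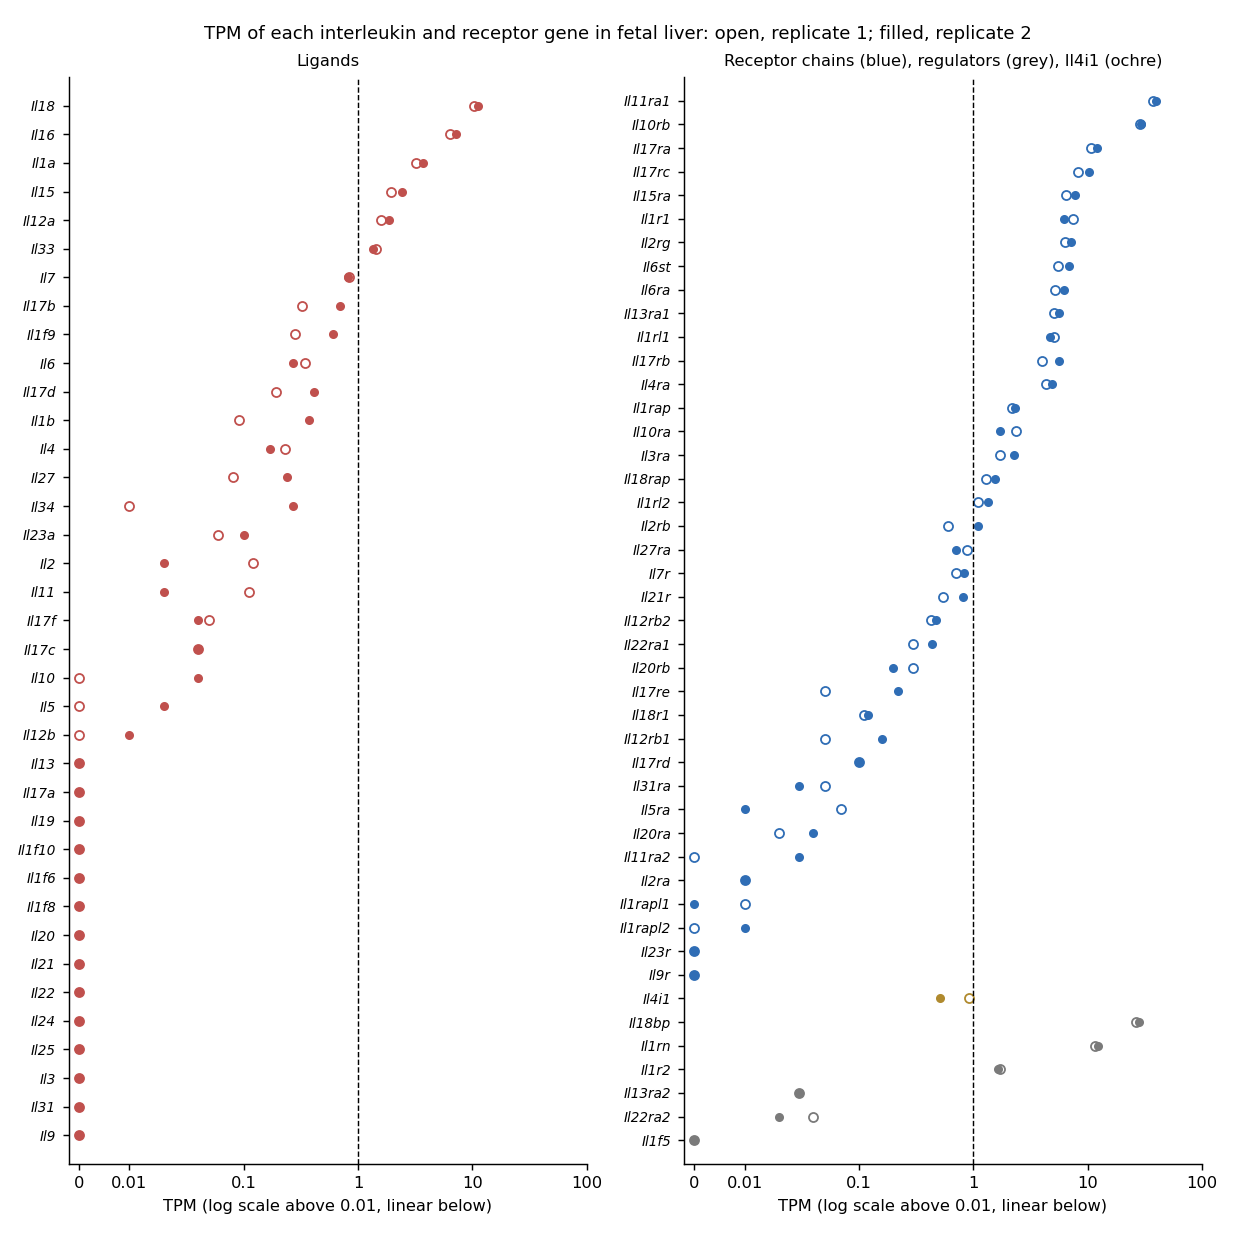
TPM of each of the 82 genes (horizontal axis, log scale above 0.01 and linear below) in replicate 1 (open circles) and replicate 2 (filled circles), ligands on the left, receptor chains, Il4i1 and regulators on the right; the dashed line marks 1 TPM. The open and filled circles of the 27 detected genes lie close together, from Il11ra1 at 37.43 and 39.72 TPM to Il1rl2 at 1.10 and 1.34 TPM, and 14 ligands sit at 0.

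Of the regulators, those that restrain IL-1 and IL-18 were the abundant ones. Il18bp, a secreted protein that binds IL-18, had 26.77 and 28.20 TPM, above its ligand Il18 at 10.28 and 11.12 TPM. Il1rn, the IL-1 receptor antagonist, had 11.73 and 12.30 TPM, above the agonists Il1a (3.24 and 3.66 TPM) and Il1b (0.09 and 0.37 TPM). Il1r2, a decoy receptor that binds IL-1 without signalling, had 1.72 and 1.66 TPM. For Il18bp and Il18, and for Il1rn and Il1a, the gap between the genes was larger than the difference between the libraries. The IL-13 decoy Il13ra2 (2 counts in each library) and the IL-22 binding protein Il22ra2 (4 and 2 counts) were near the limit of counting. The enzyme gene Il4i1 had 0.92 and 0.51 TPM, and 73.5% of the 100-base stretches of its leading coding transcript lay also in its neighbour Tbc1d17, so its level is uncertain.

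The receptor chains of the gp130 and IL-12 family held the most abundant gene. Il11ra1, the ligand-binding chain for IL-11, had 37.43 and 39.72 TPM. Il6ra, which binds IL-6, had 5.24 and 6.21 TPM, and Il6st, the gp130 chain that signals for both, had 5.53 and 6.94 TPM. Il6ra and Il6st did not differ beyond the spread of the libraries. Il27ra (0.89 and 0.70 TPM), Il12rb2 (0.43 and 0.47 TPM) and Il12rb1 (0.05 and 0.16 TPM) were below the detection level. Of Il12rb2, 52.9% of the 100-base stretches were shared with Serbp1, a gene on the other strand at 41.06 and 35.98 TPM, and the deposited text does not say whether strand was used, so even this low level is uncertain. Il31ra, the IL-31 receptor chain, had 8 and 5 counts.

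The place of Il11ra1 at the head of the list depends on how a level is counted. Transcripts annotated as retaining an intron carried 37.9% ± 0.882 (SD, n = 2) of its TPM, and its protein-coding transcripts summed to 23.46 and 24.40 TPM. Those of Il10rb, the second gene, summed to 26.42 and 27.30 TPM. By protein-coding transcripts Il18bp came first, at 26.77 and 28.20 TPM, ahead of Il10rb and then Il11ra1. By expected counts Il10rb came first, with 2043 and 2308 against 1989 and 2227 for Il11ra1. In addition, 36.0% of the 100-base stretches of Il11ra1 were shared with the near copies Gm13305 and Il11ra2. The copy Il11ra2 itself received 0 and 1.86 counts.

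IL-10 family receptors were led by Il10rb, the shared second chain for IL-10, IL-22 and the type III interferons, at 28.50 and 29.35 TPM. Il10ra, the chain that binds IL-10, was lower at 2.35 and 1.70 TPM, and unlike most genes here it was higher in replicate 1. The chains for IL-20 and IL-22 were below 1 TPM, Il22ra1 at 0.30 and 0.44, Il20rb at 0.30 and 0.20 and Il20ra at 0.02 and 0.04 TPM. None of the 5 IL-10 family ligands had more than 2 counts in a library.

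Of the IL-17 receptors, Il17ra, the chain common to the family, had 10.77 and 12.13 TPM. Il17rc, its partner for IL-17A and IL-17F, had 8.28 and 10.26 TPM, and Il17rb, its partner for IL-25, had 4.00 and 5.59 TPM. Il17re, the partner for IL-17C, had 0.05 and 0.22 TPM and Il17rd 0.10 and 0.10 TPM. In both libraries the order was Il17ra, Il17rc, Il17rb, and although the values of Il17ra and Il17rc did not overlap, the gap between 10.26 and 10.77 TPM was smaller than the difference between the libraries. None of the 6 IL-17 family ligands was detected.

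Over all 82 genes, 65 shared no 100-base stretch with another gene and 8 shared 20% or more. Among the latter, Il10rb (27.0%) and Il2rg (40.2%) shared theirs with Gm21970 and Gm20489, annotated genes that overlap them on the same strand and were both listed at 0 TPM.

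The gamma chain family was represented by its shared chain Il2rg at 6.41 and 7.13 TPM and by Il4ra at 4.34 and 4.93 TPM. Il13ra1, which pairs with Il4ra to bind IL-4 or IL-13, had 5.12 and 5.60 TPM. Il15ra, which presents IL-15 to neighbouring cells, had 6.43 and 7.72 TPM. Il2rb, needed for IL-2 and IL-15 signalling, lay next below the detection level at 0.60 and 1.09 TPM, and was the only gene to pass 1 TPM in 1 library alone. Il7r, at 0.70 and 0.83 TPM, and Il21r, at 0.54 and 0.81 TPM, were also below it, and Il2ra had 1 and 2 counts. Il3ra, which binds IL-3, had 1.71 and 2.27 TPM, while Il5ra had 5 and 1 counts.

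IL-1 family receptor chains were detected at moderate levels. Il1r1, the signalling IL-1 receptor, had 7.39 and 6.26 TPM, and Il1rl1, the IL-33 receptor also known as ST2, had 5.04 and 4.66 TPM. The shared chain Il1rap was lower at 2.20 and 2.33 TPM. Il18rap had 1.28 and 1.55 TPM and Il1rl2, the IL-36 receptor, 1.10 and 1.34 TPM, the lowest of the detected genes. Il18r1, the chain that binds IL-18, had 0.11 and 0.12 TPM, on 14 and 13 counts. The Il18r1 gene lies inside a cluster of 6 IL-1 receptor genes on chromosome 1 (GRCm38, chr1:40074079-40551705), of which the other 5 (Il1r2, Il1r1, Il1rl2, Il1rl1 and Il18rap) were all detected. A second cluster of 6 IL-1 family genes on chromosome 2 (chr2:24153161-24351494), of Il1f8, Il1f9, Il1f6, Il1f5, Il1f10 and Il1rn, held only 1 detected gene, Il1rn. The receptor-like genes Il1rapl1 and Il1rapl2 had 1 count each over both libraries.

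The genes Il1rl1 and Il1rap each make a membrane form and a shorter form that parts from it inside the coding sequence, and the deposited transcript tables give a level for each. The sequences below, from the GENCODE transcripts, show the point of parting. Lower case marks the last 30 coding bases that both forms share, and capitals mark the first bases of each form after it, up to the last codon before the stop in the shorter forms.
Il1rl1, 337 codons: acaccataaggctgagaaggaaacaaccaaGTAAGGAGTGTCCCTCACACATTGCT
Il1rl1, 567 codons: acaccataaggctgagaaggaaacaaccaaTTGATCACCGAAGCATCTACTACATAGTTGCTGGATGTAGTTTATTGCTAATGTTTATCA
Il1rap, 360 codons: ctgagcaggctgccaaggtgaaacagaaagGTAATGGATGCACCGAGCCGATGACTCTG
Il1rap, 570 codons: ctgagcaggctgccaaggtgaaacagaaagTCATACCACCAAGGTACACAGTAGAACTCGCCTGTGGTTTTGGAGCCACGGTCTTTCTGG
The forms of Il1rl1 share 985 coding bases. The capitals of the shorter form lie at chr1:40446676-40446701, in its last exon (exon 8), and those of the longer form at chr1:40450075-40450134, in exon 8 of 10 (GRCm38, plus strand). The forms of Il1rap share 1051 coding bases, with capitals at chr16:26701237-26701265 in exon 8 of 8 and chr16:26710481-26710540 in exon 9 of 11 (plus strand). In both genes the shorter form begins its own stretch with the letters GT.

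Membrane-form transcripts of Il1rl1, with 567 codons, carried 3.68 and 3.15 TPM, and those with 337 codons, the length of the secreted decoy, carried 1.36 and 1.51 TPM. The longer form thus held 70.3% ± 3.83 (SD, n = 2) of the gene's TPM. For Il1rap the order was less certain. The 360-codon transcript had 1.08 and 1.47 TPM in replicates 1 and 2, or 49.1% and 63.4% of the gene, and the 570-codon transcript 1.07 and 0.83 TPM, or 48.6% and 35.8%. In replicate 1 the Il1rap forms were nearly level, and in replicate 2 the shorter one was ahead.

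Other genes were split between transcripts as well. Of the 27 detected genes, 19 had more than 1 transcript in the tables. In 5 of them (Il12a, Il15ra, Il17rc, Il1rn and Il6st) the leading one held under 50% of TPM. No such count over all protein-coding genes is given, so whether 5 of 19 is usual cannot be told. Il6st transcripts with the full 917 codons summed to 91.0% and 79.5% of its TPM. Il1rn had 49.2% ± 2.65 on a 178-codon transcript, 27.9% ± 3.15 on one of 159 codons and 16.9% ± 0.587 on one of 162 codons (SD, n = 2). Il16 had 96.9% ± 0.0685 on a 624-codon transcript and 1.03% on the 1322-codon one. Il12a had 43.3% ± 8.53 on its 215-codon transcript and the rest on transcripts retaining introns. Its coding level was thus 0.78 and 0.69 TPM, under the detection level that the whole gene passed. The other detected ligands, Il18, Il16, Il1a, Il15 and Il33, had 98.1% or more of their TPM on protein-coding transcripts. With these transcripts alone, Il12a was the only detected ligand to fall below 1 TPM. For Il15ra, 51.1% ± 2.89 of TPM lay on protein-coding transcripts, of 18 listed, and the leading transcript differed between the libraries. The 263-codon transcript of Il15ra had no count. For Il17rc, 71.5% ± 0.965 of TPM lay on 5 transcripts that the annotation release used for names does not hold, so their coding status was not examined. Reads shared by transcripts were divided by the authors' estimate, and the split has no error beyond the spread of the 2 libraries.

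**Figure D3:**
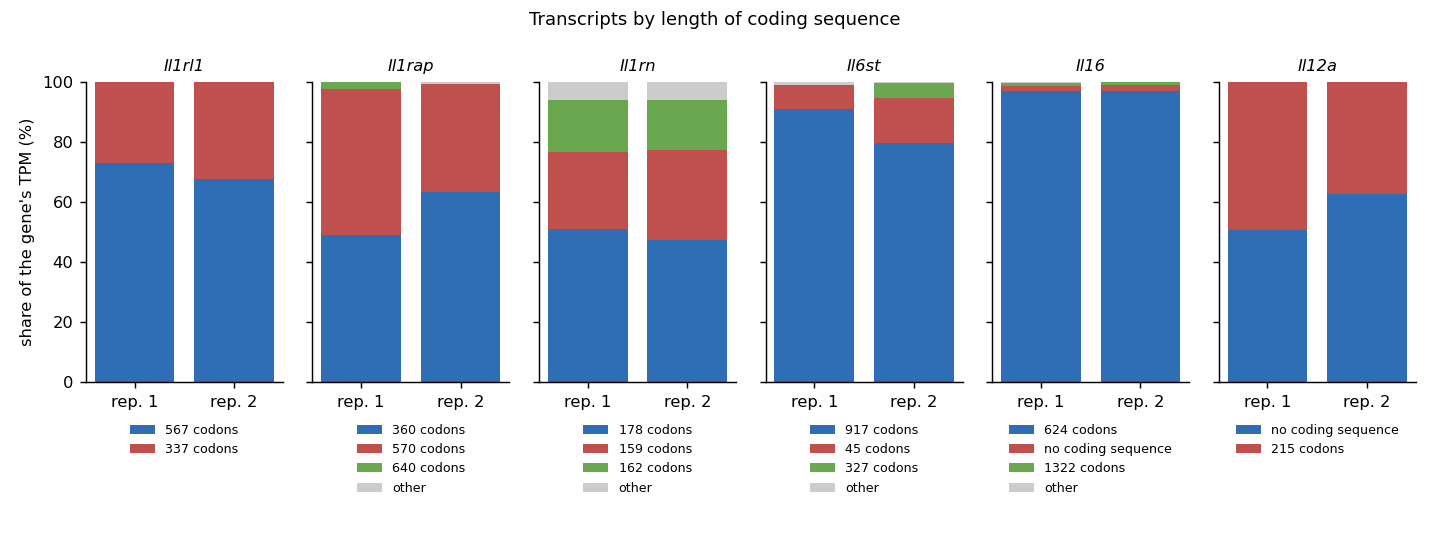
Share of each gene's TPM (vertical axis, percent) held by transcripts grouped by the length of their coding sequence, in replicates 1 and 2, for Il1rl1, Il1rap, Il1rn, Il6st, Il16 and Il12a; grey stands for the remaining transcripts. The 624-codon form of Il16 fills 96.9% of its bars, while the leading group of Il12a has no coding sequence in the annotation.

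The receptor genes were next read as sets of the chains that form a receptor together. Of 28 ligand and receptor sets, 12 had every receptor chain above the detection level. A detected ligand accompanied 2 of these, IL-1 (Il1a with Il1r1 and Il1rap) and IL-33 (Il33 with Il1rl1 and Il1rap). In both, the lowest chain was Il1rap at 2.20 and 2.33 TPM, a level that includes its shorter form. Its transcripts of 570 or more codons alone summed to 1.12 and 0.85 TPM, under the detection level in replicate 2. Counted with these alone, a choice made after the values were seen, 9 sets were complete and 0 of them had a detected ligand, as IL-1, IL-33 and IL-36 dropped out. The other 10 complete sets had no detected ligand. They were those for IL-3, IL-4 (type I), IL-4 and IL-13 (type II), IL-6, IL-10, IL-11, IL-17A and IL-17F, IL-25, IL-34 and IL-36. Of all ligands 16.2% were detected, so 2 of 12 is near that share and marks no trait of the complete sets. The sets also share chains such as Il1rap, Il2rg, Il17ra and Il6st. What number of complete sets the single chains would give was not examined. Chains of different sets may be made by different cells, which these libraries do not show.

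In 3 sets the ligand was detected but the receptor was not complete. For Il18, Il18rap was detected and Il18r1 was not, at 0.11 and 0.12 TPM. For Il15, Il2rg passed and Il2rb had 0.60 and 1.09 TPM. For Il16, Cd4, its reported receptor, had 0.10 and 0.11 TPM on 7 and 14 counts. The ligand exceeded the lowest chain in both libraries in all 3 sets. The remaining 13 sets had neither a detected ligand nor a complete receptor, among them IL-12, for which Il12a was detected and Il12b was not. IL-35, which joins Il12a to Ebi3, was not among the sets.

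**Figure D4:**
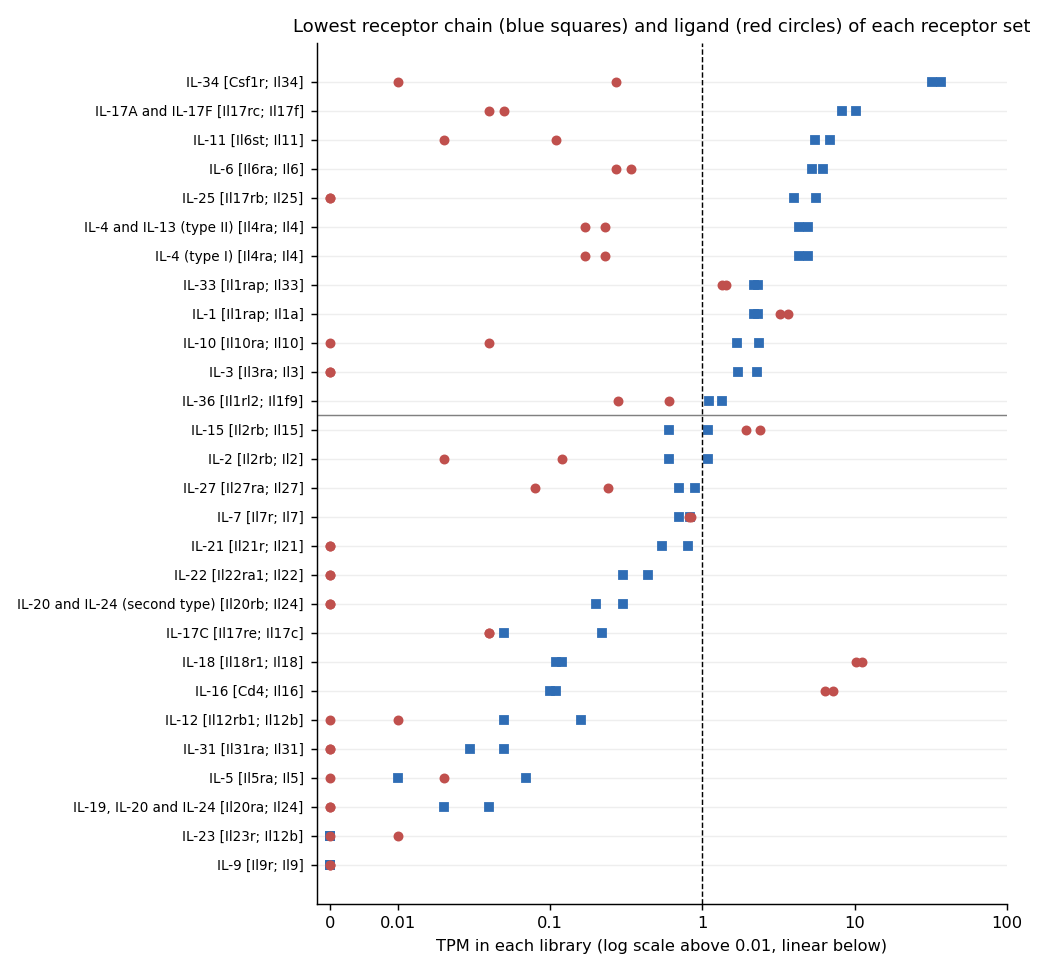
TPM in each library (horizontal axis, log scale above 0.01 and linear below) of the lowest receptor chain (blue squares) and the ligand (red circles) of 28 sets, with the genes plotted in brackets; the dashed line marks 1 TPM and sets above the grey line have a complete receptor, with Il1rap taken as the sum of its forms. Of the 12 complete sets, only IL-1 and IL-33 have ligand points to the right of 1 TPM, and IL-15, IL-18 and IL-16 are the incomplete sets with ligands there.

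Chains and signalling genes outside the naming rule were examined by lists. Of 9 partner chains, 7 were detected. Csf1r, the receptor for CSF-1 and IL-34, had 32.41 and 36.89 TPM, Lifr 17.70 and 19.38 TPM, and Sigirr, an inhibitory IL-1 family receptor, 18.11 and 18.29 TPM. Ebi3, which pairs with Il27 in IL-27 and with Il12a in IL-35, had 6.59 and 8.46 TPM. The beta chain Csf2rb, shared by IL-3 and IL-5, had 5.02 and 5.64 TPM and its copy Csf2rb2 1.14 and 1.70 TPM. Crlf2, a chain of the TSLP receptor, had 3.91 and 4.12 TPM. Osmr (0.31 and 0.67 TPM) and Cd4 were below the detection level.

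Downstream of the receptors, 4 of 4 JAK kinases, 7 of 7 STAT factors, 4 of 4 SOCS inhibitors and 9 of 9 MyD88 and IL-17 adaptors were detected. Jak1 was the highest kinase at 42.46 and 42.15 TPM and Jak2 the lowest at 4.56 and 5.15 TPM. Stat3, used by the IL-6 and IL-10 receptors, had 28.70 and 34.21 TPM, and Stat4, used by the IL-12 receptor, 1.07 and 1.41 TPM. Among the inhibitors, Cish had 9.00 and 9.42 TPM and Socs1 1.42 and 1.55 TPM. Among the adaptors, Tollip had 21.66 and 21.79 TPM and Traf3ip2, which encodes Act1, 1.35 and 1.07 TPM. Of 7 genes of the inflammasome pathway, in which IL-1 beta and IL-18 are cut, 4 were detected, though not all 7 serve the cutting itself. Gsdmd was highest at 11.97 and 13.01 TPM and Nlrc4 lowest at 0.32 and 0.29 TPM. The share of all protein-coding genes detected, 52.2%, is the background for these short lists, and the inflammasome's 4 of 7 is near it.

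The stretches before the start sites of a few genes are shown to set a pair of detected receptor genes beside the IL-1 ligand genes. They are the 200 bases upstream of the RefSeq start (GRCm38.p6), 5′ to 3′, with CG pairs and the letters TATAAA in capitals. These 4 genes were chosen after the values were seen.
Il6st: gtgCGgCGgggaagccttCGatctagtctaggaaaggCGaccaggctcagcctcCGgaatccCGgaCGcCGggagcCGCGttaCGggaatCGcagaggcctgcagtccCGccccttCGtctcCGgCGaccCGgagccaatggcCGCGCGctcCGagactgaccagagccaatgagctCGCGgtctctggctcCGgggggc
Il13ra1: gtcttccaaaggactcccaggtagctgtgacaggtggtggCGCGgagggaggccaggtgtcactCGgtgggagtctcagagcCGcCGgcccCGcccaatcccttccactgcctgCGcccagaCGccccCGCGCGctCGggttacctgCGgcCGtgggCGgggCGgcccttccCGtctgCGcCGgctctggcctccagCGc
Il1a: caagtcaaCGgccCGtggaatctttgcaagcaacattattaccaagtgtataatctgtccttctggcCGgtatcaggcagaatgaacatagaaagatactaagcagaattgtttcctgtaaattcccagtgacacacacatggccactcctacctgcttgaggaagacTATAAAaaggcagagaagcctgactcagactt
Il1b: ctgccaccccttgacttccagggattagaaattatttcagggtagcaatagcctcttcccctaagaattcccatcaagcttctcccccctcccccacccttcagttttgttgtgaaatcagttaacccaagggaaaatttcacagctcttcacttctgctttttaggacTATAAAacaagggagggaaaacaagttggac
They lie at chr13:112463870-112464069 (plus strand), chrX:36111908-36112107 (plus), chr2:129309973-129310172 (minus) and chr2:129371140-129371339 (minus). The stretches of Il6st and Il13ra1 hold 24 and 20 CG pairs, those of Il1a and Il1b 3 and 0. In windows of 300 bases around the start, these genes hold 33, 28, 5 and 3 CG pairs. The median over protein-coding genes is 16, and over the detected ones 21. Of the genes shown, Il1b was not detected. As the 4 genes were chosen with the values known, the contrast between them allows no conclusion about receptor and ligand genes. The contrast does not follow the roles throughout, as the windows of the detected receptor genes Il11ra1 and Il2rg hold 3 each, and those of the ligand genes Il12a and Il17d 16 and 19. TATAAA stands before the start in Il1a and Il1b, on the strand of the gene. Of 13820 protein-coding genes with a window, 3.42% hold TATAAA on that strand between -50 and -11 bases from the start. Windows near the start used could be assigned to 56 of the 82 genes (68.3%), under the 80% set as the least for a comparison, so a comparison of CG pairs or TATAAA over all the genes is void and is not given. A match of letters is a description and not a site of binding.

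Differences between the 2 libraries were small for most of the genes. A difference was the log2 ratio of replicate 2 to replicate 1, with 0.1 added to each TPM, less the median ratio of protein-coding genes with at least 100 counts. It was examined for the 45 genes with a mean of 10 or more counts. Past a 2-fold difference were 2 of these, both higher in replicate 2. Among all protein-coding genes examined in the same way, 2.21% passed 2-fold in either direction, 2% higher and 0.204% lower in replicate 2, and among those with 10 to under 50 counts 10.2% did. Both genes had under 50 counts. Of the interleukin and receptor genes, 12 lay in that range of counts, these 2 among them.

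Il1b went from 5 to 21 counts, a ratio of 3.85 after scaling for depth (95% exact binomial interval 1.41 to 13.1, counting error only). Il17re went from 4 to 24 counts, a ratio of 5.51 (1.89 to 21.8). Neither gene was detected in either library. Over the 45 genes, 34 lay above 0 with a median log2 difference of 0.15, against a median of 0.01 over the 14233 protein-coding genes, of which 7482 lay above 0. Markers of gut and pancreas were also higher in replicate 2 for 7 of 7 genes. Their sum was 21.48 TPM in replicate 1 and 47.29 TPM in replicate 2. Markers of bile duct and other epithelium were higher for 7 of 8, with 248.6 and 272.3 TPM. Most of the latter sum lay on Krt8 (114.94 and 123.34 TPM) and Krt18 (106.90 and 107.02 TPM). Krt19 stood at 2.50 and 8.28 TPM, Epcam at 0.76 and 5.75 TPM and Prss1 at 0.52 and 4.89 TPM. Cdx2 was at 0 in replicate 1. All 6 stellate and mesenchymal markers (211.9 and 261.5 TPM) were higher in replicate 2 as well. Among blood cell markers, those of B lymphoid cells were higher there for 8 of 8 genes (52.56 and 62.77 TPM in sum) and those of macrophages for 7 of 8, while those of mast cells and basophils were higher for 1 of 7 (16.86 and 13.83 TPM). Also higher there were 5 of 6 hepatocyte, 5 of 6 endothelial, 3 of 4 mesothelial, 4 of 5 megakaryocyte and 4 of 6 neutrophil markers. For red cells it was 2 of 6, for T cells 3 of 6, for natural killer and innate lymphoid cells 3 of 7 and for eosinophils 1 of 3. The part of all these markers in the differences of the interleukin genes was not tested.

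**Figure D5:**
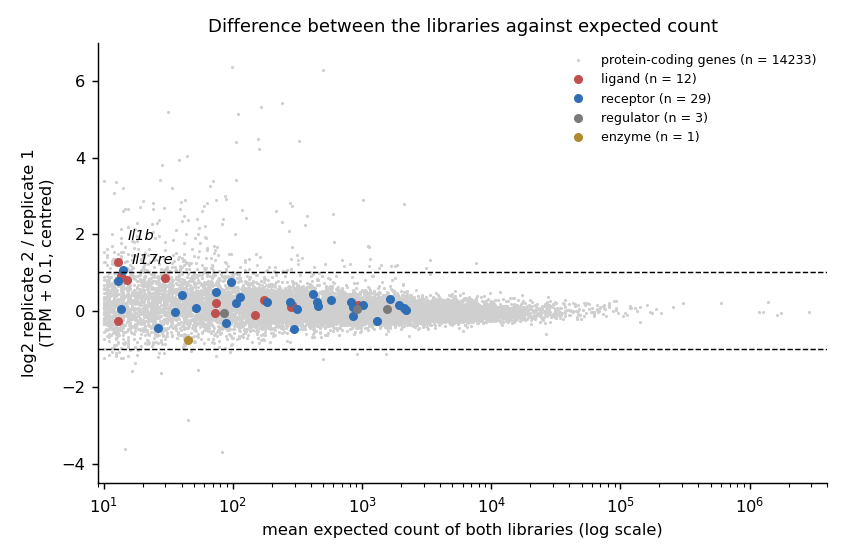
Centred log2 difference between the libraries, positive where replicate 2 is higher (vertical axis), against the mean expected count of both libraries (horizontal axis, log scale), for 14233 protein-coding genes (grey) and the 45 interleukin and receptor genes with a mean of 10 or more counts (coloured by role); dashed lines mark 2-fold. Il1b and Il17re, at the left where grey points spread widest, are the only coloured points above the upper line.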

How the data were processed

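For each of the 2 libraries the authors deposited a gene table and a transcript table quantified on mouse assembly mm10 with GENCODE M4, per the deposited text and the file headers. Expected counts are, per the file headers, estimated counts that need not be whole. The deposited TPM values are scaled over all rows of a table, and the posterior mean TPM that the authors also give estimates the same quantity. Aligner and program versions are not given in the sources used here. Symbols, biotypes and coordinates came from GENCODE M21 (GRCm38), matched on gene IDs without their version.

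Roles were assigned by hand. Named with values were all genes detected in both libraries (from 1 TPM), ligands with 3 or more counts in both, genes past 2-fold at a mean of 10 or more counts, those next to the detection level, and those in complete receptor sets; pathway genes came from lists, by partner chain or as highest and lowest of a list. The members, roles and lists were chosen with earlier results of these data known. With 1 group no test was made. Counts were rounded for the TMM factors of edgeR 4.0.16 and the size factors of DESeq2 1.42.0, used only in alternatives. Shared stretches are 100-base runs of a gene's leading coding transcript found on either strand in another gene's transcripts. Work was done in Python 3.11.15 with pandas 2.3.3 and scipy 1.17.1. Alternatives were other detection levels, the posterior mean TPM, TPM over nuclear protein-coding genes, counts, coding transcripts only, roles by symbol, other pseudocounts and count minimums, and leaving out each library.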

Additional observations from a re-analysis of the deposited data

How the results depend on the processing

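Of 67 recomputed values, 49 kept within 1.5 times of a count or within the spread between libraries of a level. For the medians and the receptor share, leaving out 1 library could only give a kept value. Each of 2 libraries lies within the SD around their mean, so these cases say nothing about stability. The number of detected ligands, 6, fell to 3 at 2 TPM. The median TPM of ligands, 0.04, became 0.115 with the posterior mean TPM, 0.0462 over nuclear protein-coding genes, 1.11 among genes with a mean of 10 or more counts and 0.045 with roles read from the symbol. That of receptor chains, 0.878, became 1.01 over nuclear protein-coding genes and 2.24 among genes with 10 or more counts. Receptor chains stayed above ligands in each of these. Their share of the summed level, 68.3%, was 67.9% with the posterior mean TPM, 77.8% by expected counts, 64.3% by protein-coding transcripts, 71.6% with roles by symbol and 61.7% without Il11ra1. Genes past 2-fold, 2, became 0 with a pseudocount of 1, 6 with one of 0.01 (all higher in replicate 2) and 0 at a mean of 50 or more counts, while the share of protein-coding genes past it became 0.499%, 4% and 1.05%. Complete receptor sets ranged from 9 at 2 TPM to 17 at 0.5 TPM, and from 12 to 14 when 1 library was left out, where Il2rb passed 1 TPM in replicate 2 alone. Those with a detected ligand, 2, became 4 at 0.5 TPM, 1 at 2 TPM, 0 with the membrane forms of Il1rap alone (added after seeing the data) and 2 to 3 when 1 library was left out. Genes under about 50 counts carry wide counting error, so folds between libraries and the order of low ligands are limited by depth. No paired analysis was possible because there was only 1 group.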
